A study of Mus musculus with 9 samples.

Results

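The genes described here encode the machinery that displays antigen on MHC class I and class I-like molecules: the classical heavy chains H2-K1 and H2-D1, the nonclassical heavy chains H2-T23, Mr1 and Cd1d1, the light chain B2m, the peptide transport and loading genes Tap1, Tap2 and Tapbp, and the transactivator Nlrc5. They were chosen by name, and their probes were found through the RefSeq entries of the array's probe list. All 10 had probes, 13 in all, among the 20258 named genes of the array, and all 10 were among the 20282 genes tested. The study sorted thymocytes of C57BL/6 mice by CD4, CD8 and surface TCRβ and hybridised the RNA of each sort to 1 Cy3-labelled Agilent array, 9 arrays in total. Conditional knockout (CKO) mice carried Brd1flox/flox and Tie2-Cre. Control mice carried Brd1+/+ and the same Tie2-Cre. Tie2-Cre is active in endothelial cells and in blood-forming precursors, so it is not particular to thymocytes. Double-positive (DP), CD4 single-positive (CD4SP) and CD8 single-positive (CD8SP) cells were taken from both genotypes at 8 weeks of age. CD8SP cells that also carried the OT-I transgene, a T cell receptor restricted by the product of H2-K1, came at 14 weeks of age from CKO and control mice. A sort of CD4SP cells lacking surface TCRβ came from 8-week CKO mice alone. Each group is 1 array, and nothing in the labels says that the 8-week arrays of a genotype came from separate mice.

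A class I molecule is a heavy chain bound to beta-2 microglobulin, the product of B2m. Classical heavy chains present peptides that Tap1 and Tap2 pump into the endoplasmic reticulum and that tapasin, the product of Tapbp, helps to load, and Nlrc5 switches on many of these genes together. In the thymus, class I on epithelial cells selects CD8 T cells, and DP thymocytes themselves carry CD1d and MR1, which select invariant NKT cells and MAIT cells. Classical class I is known to be low on DP thymocytes and higher on mature single-positive ones.

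Levels are log2 signals minus the 75th percentile of their own array, so 1 unit is a 2-fold difference. A level compares arrays for 1 gene and says nothing about another gene, because probes differ in brightness. Per array, 38.97% to 45.9% of probes had a signal well above background. Of the sorting markers, Cd4 reached 6.19 to 6.54 where DP or CD4SP cells were sorted, against 3.14 to 3.50 for CD8SP and OT-I sorts. Cd8a reached 4.60 to 5.46 in the DP, CD8SP and OT-I sorts, against -2.11 to -0.32 in the CD4SP sorts, the TCRβ-negative one included. Within the CD4SP sorts, Cd8a was highest in TCRβ-negative CKO cells (-0.32), against -2.11 in CD4SP CKO and -1.22 in CD4SP control cells. Cd8b1, the other CD8 chain, was at 3.24 in TCRβ-negative CKO cells, above its 0.54 in CD4SP CKO and 1.67 in CD4SP control cells. Neither CD8 gene was thus as low in that sort as in the other CD4SP sorts. The pan-T markers Cd3e and Lck were at 7.92 or more on all 9 arrays, and of 8 markers of epithelium and stroma, Epcam was well above background on 7 arrays and Krt5 on 6, with the other 6 (Foxn1 and Psmb11 among them) on none. Brd1 itself, by 1 probe whose place relative to the deleted part is not known, lay between -0.98 and -0.33 on the 5 CKO arrays and between -1.37 and -0.79 on the 4 control arrays, so that probe does not check the deletion. In sorted but mixed samples, fewer cells of a type and less RNA per cell cannot be told apart. The H2 genes are close relatives, and signal from one can reach the probe of another; their values are uncertain to that extent.

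The promoters of the classical genes, B2m, H2-T23 and Mr1 are shown so that genes that rose in single-positive cells and genes that did not can be set side by side, and with them 4 letter strings known from class I regulation. The windows run 200 bases up to the transcription start, 5′ to 3′ on the gene's strand, from RefSeq on GRCm38.p6. Capitals mark matches on either strand to GGGATTCCC (the kappa B site of the class I enhancer), GAAANNGAA (the core of an interferon-stimulated response element), TGACG (the X2 box half-site) and CCAAT (the Y box). H2-K1 is shown at chr17:34000348-34000547 (minus strand), H2-D1 at chr17:35262894-35263093 (plus strand), B2m at chr2:122147487-122147686 (plus strand), H2-T23 at chr17:36032702-36032901 (minus strand) and Mr1 at chr1:155146815-155147014 (minus strand).
H2-K1: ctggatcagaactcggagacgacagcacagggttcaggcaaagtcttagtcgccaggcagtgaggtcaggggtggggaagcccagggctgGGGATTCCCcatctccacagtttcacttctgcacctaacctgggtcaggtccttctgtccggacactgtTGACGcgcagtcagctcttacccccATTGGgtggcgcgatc
H2-D1: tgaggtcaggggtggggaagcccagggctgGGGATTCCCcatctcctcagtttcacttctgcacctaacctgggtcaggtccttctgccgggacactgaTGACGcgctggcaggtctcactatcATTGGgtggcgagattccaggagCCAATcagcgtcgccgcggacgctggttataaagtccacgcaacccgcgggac
B2m: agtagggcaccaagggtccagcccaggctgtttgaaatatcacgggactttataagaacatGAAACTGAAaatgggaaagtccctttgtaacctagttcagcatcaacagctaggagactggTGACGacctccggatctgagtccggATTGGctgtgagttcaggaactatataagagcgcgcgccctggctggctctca
H2-T23: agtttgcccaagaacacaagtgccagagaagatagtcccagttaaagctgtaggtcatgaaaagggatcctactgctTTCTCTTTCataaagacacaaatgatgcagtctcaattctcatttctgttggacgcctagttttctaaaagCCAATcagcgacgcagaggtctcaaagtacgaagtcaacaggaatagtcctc
Mr1: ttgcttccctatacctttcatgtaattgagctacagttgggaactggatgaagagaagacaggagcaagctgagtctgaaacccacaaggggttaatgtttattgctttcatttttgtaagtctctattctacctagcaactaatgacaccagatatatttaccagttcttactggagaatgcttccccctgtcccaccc
Windows of 300 bases, 250 before the start and 50 after it, were searched for 7 members and for all 32851 windows of the table. GGGATTCCC was found in H2-K1 and H2-D1 (2 of 7 members) and in 0.353% of all windows. In these 2 genes it sits inside a run of 47 identical bases, the longest the 2 upstream stretches share. GAAANNGAA was found in B2m and H2-T23, against 8.56% of all windows, TGACG in B2m, H2-K1, Tap1 and H2-D1 (4 of 7, against 20.8%), and CCAAT in 6 of 7, against 37.4%. Mr1 held none of the 4 strings in its window. The strings do not overlap one another in the windows printed, and a match is a run of letters, not a measured binding site. Each string was searched with its letters and spacing fixed, so variants of these sites were missed. The lack of a GAAANNGAA match in H2-K1 and H2-D1 therefore does not show that they lack an interferon-stimulated response element.

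The main difference among the arrays was between DP and single-positive cells. H2-K1, H2-D1, B2m and Nlrc5 rose in both CD4SP and CD8SP cells compared with DP cells, H2-K1 by about 26.6-fold and 27.2-fold. H2-T23 and Tapbp were also at a higher level in single-positive cells without passing the test, Cd1d1 and Tap2 had differences under 1 unit without passing, and Mr1 had a lower level than in DP cells on the CD4SP control, CD8SP and OT-I arrays. Each gene was tested with limma, in a model that adds a genotype term to the population terms (9 arrays, 3 residual degrees of freedom), with p adjusted over all 20282 genes and called below 0.05. Of the 10 genes, 4 rose and 0 fell in CD4SP cells, against 2.16% and 0.922% of all genes, and 7 had an unadjusted p below 0.05, against 17.7% of all genes. The same 4 rose and 0 fell in CD8SP cells, against 2.42% and 1.04%, and 8 had an unadjusted p below 0.05 in either direction, against 20.9%. Mr1, which was lower in CD8SP cells (-2.47), is among these 8. The median difference over the 10 genes was 1.75 for CD4SP minus DP and 1.43 for CD8SP minus DP, and over all genes -0.0020 and 0.030.

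**Figure D1:**
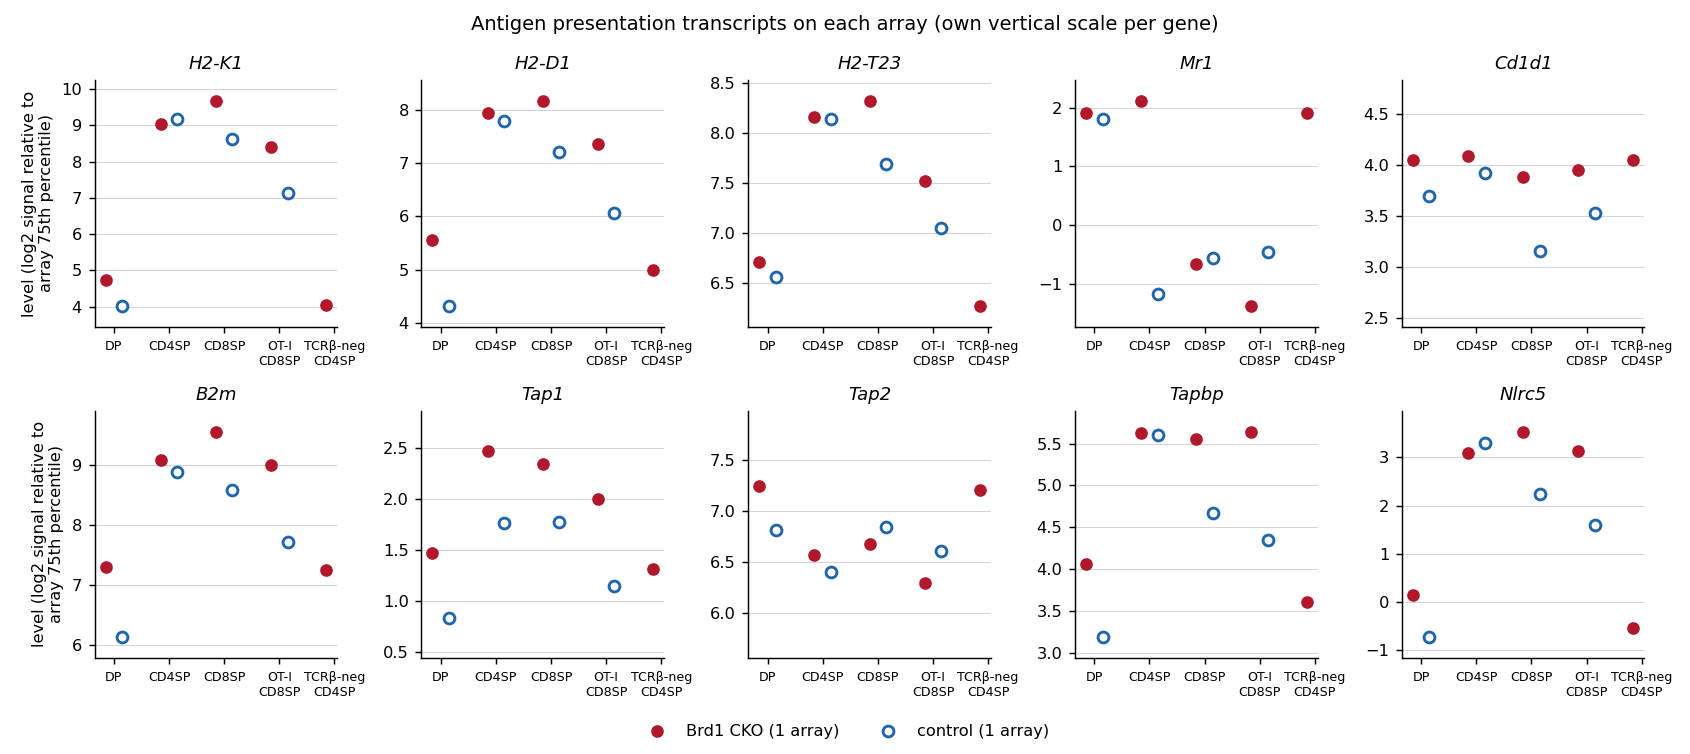
Level of each of the 10 genes (log2 signal relative to the array's 75th percentile, vertical axis with its own scale per gene) in the 5 sorted populations, with 1 point per array: filled for Brd1 CKO, open for control. H2-K1 runs between 4.03 and 9.67 with the DP and TCRβ-negative arrays lowest, and Mr1 runs between -1.38 and 2.11 with the CD4SP CKO array beside the DP arrays.

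H2-K1, a classical heavy chain and the restricting element of OT-I, had levels of 4.72 in DP CKO and 4.03 in DP control cells. It was at 9.05 in CD4SP CKO and 9.17 in CD4SP control cells, and at 9.67 in CD8SP CKO and 8.62 in CD8SP control cells. In OT-I CD8SP cells it was at 8.40 in the CKO and 7.14 in the control, and in TCRβ-negative CD4SP CKO cells at 4.04. No single-positive array with TCRβ overlapped the DP arrays, and the TCRβ-negative array lay with DP. The fitted difference was 4.73 for CD4SP minus DP (SE 0.39, adjusted p = 0.0125) and 4.76 for CD8SP minus DP (SE 0.39, adjusted p = 0.00802). A second H2-K1 probe spread over 3.15 units where the first spread over 5.64. By that probe the differences were 2.46 and 2.38, both past the threshold, so the size of the H2-K1 difference depends on the probe.

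H2-D1, the other classical heavy chain measured here, had levels of 5.56 in DP CKO and 4.32 in DP control cells. The CD4SP pair stood at 7.94 in the CKO and 7.78 in the control, and the CD8SP pair at 8.16 in the CKO and 7.21 in the control. OT-I CD8SP cells had 7.35 in the CKO and 6.07 in the control, and TCRβ-negative CKO cells had 4.99. The order of populations was that of H2-K1, with OT-I control nearest to DP CKO among the single-positive arrays. H2-D1 was higher by 2.92 in CD4SP than in DP cells (SE 0.36, adjusted p = 0.0220) and by 2.74 in CD8SP than in DP cells (SE 0.36, adjusted p = 0.0202).

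B2m, whose product every class I heavy chain needs, was also higher in single-positive cells with TCRβ than in DP cells. Its level was 7.30 in DP CKO and 6.13 in DP control, 9.09 in CD4SP CKO and 8.90 in CD4SP control, 9.56 in CD8SP CKO and 8.59 in CD8SP control, 9.01 in OT-I CKO and 7.71 in OT-I control, and 7.25 in TCRβ-negative CKO cells. All single-positive arrays with TCRβ lay above both DP arrays. The fit gave 2.28 for CD4SP minus DP (SE 0.35, adjusted p = 0.0318) and 2.36 for CD8SP minus DP (SE 0.35, adjusted p = 0.0276). Nlrc5, the NLR protein that activates class I promoters, had 0.14 in DP CKO and -0.71 in DP control, 3.10 in CD4SP CKO and 3.29 in CD4SP control, 3.53 in CD8SP CKO and 2.23 in CD8SP control, 3.14 in OT-I CKO and 1.59 in OT-I control, and -0.54 in TCRβ-negative CKO cells. Nlrc5 rose by 3.48 in CD4SP cells (SE 0.46, adjusted p = 0.0234) and by 3.17 in CD8SP cells (SE 0.46, adjusted p = 0.0263). A second Nlrc5 probe was well above background on 5 of 9 arrays, between -4.30 and -1.62, and by that probe the differences were 2.05 and 1.80 and passed in neither contrast (adjusted p = 0.139 and adjusted p = 0.150, limma).

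The nonclassical heavy chains moved less or the other way. H2-T23, which presents signal-sequence peptides to NK cell receptors, had levels of 6.71 in DP CKO and 6.56 in DP control, 8.16 in CD4SP CKO and 8.14 in CD4SP control, 8.31 in CD8SP CKO and 7.68 in CD8SP control, 7.52 in OT-I CKO and 7.05 in OT-I control, and 6.27 in TCRβ-negative CKO cells. Its single-positive arrays with TCRβ did not overlap the DP arrays, but the differences of 1.51 in CD4SP and 1.37 in CD8SP cells (SE 0.28 each) missed the threshold (adjusted p = 0.0544 and adjusted p = 0.0673, limma). Cd1d1, which presents lipids to NKT cells, stayed within 0.92 units on all 9 arrays: 4.05 in DP CKO and 3.69 in DP control, 4.09 in CD4SP CKO and 3.92 in CD4SP control, 3.89 in CD8SP CKO and 3.16 in CD8SP control, 3.95 in OT-I CKO and 3.53 in OT-I control, and 4.05 in TCRβ-negative CKO cells. The single-positive and DP arrays of Cd1d1 overlapped, and the fit gave 0.13 for CD4SP minus DP (SE 0.27, adjusted p = 0.889) and -0.35 for CD8SP minus DP (SE 0.27, adjusted p = 0.532). A second Cd1d1 probe lay between 0.42 and 1.96, and by that probe the difference was -0.27 for CD4SP and -0.92 for CD8SP cells (adjusted p = 0.146 for CD8SP, limma).

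Mr1, which presents vitamin B metabolites to MAIT cells, had 1 probe, well above background on all 9 arrays. Its level was 1.91 in DP CKO and 1.81 in DP control cells, 2.11 in CD4SP CKO and -1.18 in CD4SP control, -0.66 in CD8SP CKO and -0.56 in CD8SP control, -1.38 in OT-I CKO and -0.46 in OT-I control, and 1.92 in TCRβ-negative CKO cells. The arrays fell into a higher set (both DP arrays, TCRβ-negative CKO and CD4SP CKO, 1.81 to 2.11) and a lower set (the other 5, -1.38 to -0.46), with nothing between them. The fitted differences were -1.39 for CD4SP minus DP (SE 0.97, adjusted p = 0.550) and -2.47 for CD8SP minus DP (SE 0.97, adjusted p = 0.223). Among genotype-matched arrays, Mr1 in control cells was 2.99 lower in CD4SP than in DP cells, while in CKO cells it was 0.21 higher.

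The peptide transport and loading genes split. Tapbp had levels of 4.05 in DP CKO and 3.19 in DP control, 5.62 in CD4SP CKO and 5.61 in CD4SP control, 5.56 in CD8SP CKO and 4.68 in CD8SP control, 5.64 in OT-I CKO and 4.34 in OT-I control, and 3.60 in TCRβ-negative CKO cells. Its differences of 1.99 in CD4SP (SE 0.37, adjusted p = 0.0516) and 1.50 in CD8SP cells (SE 0.37, adjusted p = 0.0944) did not pass. Tap1 ranged between 0.84 in DP control and 2.47 in CD4SP CKO cells, with fitted differences of 0.97 and 0.91 (SE 0.25 each; adjusted p = 0.123 and adjusted p = 0.117, limma). Tap2 ranged between 6.30 in OT-I CKO and 7.25 in DP CKO cells and had the opposite sign in both contrasts, -0.54 and -0.27 (SE 0.30 each; adjusted p = 0.430 and adjusted p = 0.663, limma). Tap1 and Tap2 form 1 transporter, and over the 9 arrays their levels had a Pearson correlation of -0.43, given as a description. In all, 7 of the 10 genes had both CD4SP arrays above both DP arrays, against 24.4% of all genes, and 7 had both CD8SP arrays above both DP arrays, against 27.4%. Both CD4SP arrays lay below both DP arrays for 1 gene, Tap2 (26% of all genes), and both CD8SP arrays for 1 gene, Mr1 (22.6%).

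**Figure D2:**
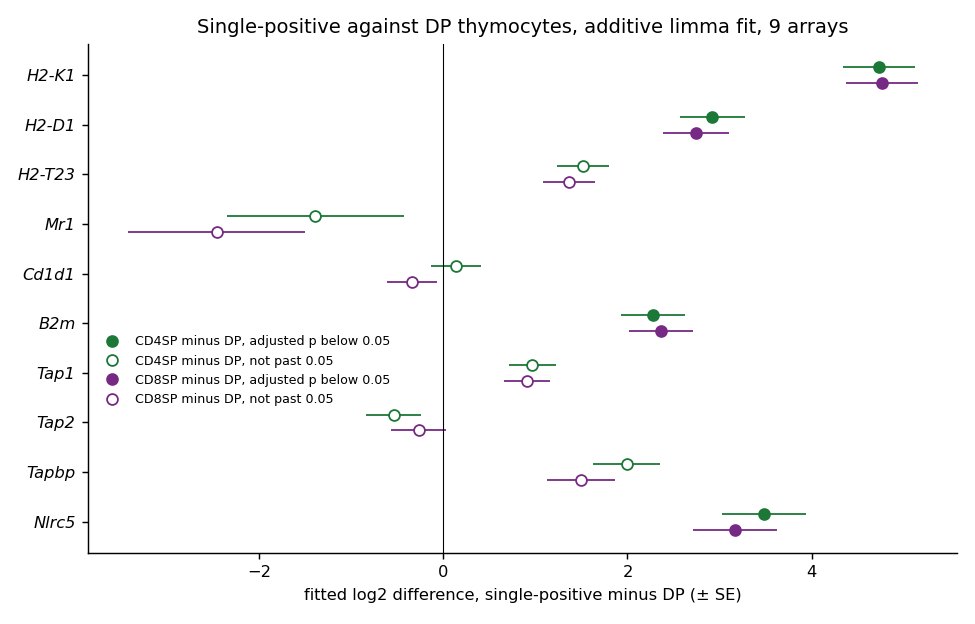
Fitted log2 difference of CD4SP minus DP (green) and CD8SP minus DP (purple) for the 10 genes, with the standard error of the limma fit as bars and filled points for adjusted p below 0.05. H2-K1, H2-D1, B2m and Nlrc5 are filled in both contrasts, H2-T23 and Tapbp are positive and open, and Mr1 is negative with the widest bars.

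Slide differed in part between the CD8SP and DP arrays, and markers of another cell type differed between single-positive and DP arrays. The arrays lie on 2 slides, 6 on the first and 3 on the second, and CD8SP CKO is on the second slide while CD8SP control is on the first. With slide as a block, limma called 0 of the 10 genes for CD8SP minus DP, with H2-K1 still at 4.55 (adjusted p = 0.0749) and Nlrc5 at 2.89 (adjusted p = 0.190), and on the first slide alone it called 2, H2-K1 and Nlrc5. For CD4SP minus DP the arrays share a slide, and with slide as a block 3 of the 4 calls held. B2m was lost there and also without the CD8SP pair (2.28, adjusted p = 0.0702 in both) and with quantile normalization (2.16, adjusted p = 0.0508, limma). Of 10 markers of myeloid and dendritic cells, which express much class I, 8 had a positive CD8SP minus DP difference. C1qb (-1.94) and Lyz2 (-0.95) had negative ones without passing, and those of Itgam (0.03) and Csf1r (0.35) were small. The sum that follows weighs bright probes most, such as H2-Ab1 (8.76 in CD8SP CKO). The summed linear level of the 10 markers was 705 in CD8SP CKO and 464 in CD8SP control, 260 in OT-I CKO and 226 in OT-I control, 106 in CD4SP CKO and 163 in CD4SP control, 60.3 in DP CKO and 83.9 in DP control, and 48.0 in TCRβ-negative CKO cells. Of these 10, 5 rose for CD8SP minus DP (Itgax, Mpeg1, H2-Aa, H2-Ab1 and Cd74), against 2.42% of all genes, and 1 for CD4SP minus DP (Cd74), against 2.16%. Lyz2 was not well above background on any CD8SP or OT-I array. The part of these markers in the differences was not tested.

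CD4SP cells without surface TCRβ lay near DP cells in their class I levels. Compared with CD4SP cells, H2-K1 fell by 5.43 (SE 0.50, adjusted p = 0.0269), H2-D1 fell by 3.32 (SE 0.46, adjusted p = 0.0372) and Nlrc5 fell by 4.17 (SE 0.58, adjusted p = 0.0393), so 3 of 10 genes fell and 0 rose, against 1.17% and 0.232% of all genes. In this contrast the TCRβ-negative side is 1 array with no spread of its own. The SE and p take their spread from the other arrays, the lone array being assumed to vary like them, and the model gives it the genotype effect of the other populations. The direct difference between the TCRβ-negative CKO and CD4SP CKO arrays was -5.01 for H2-K1, -2.95 for H2-D1 and -3.64 for Nlrc5. B2m (-2.20), Tapbp (-2.40) and H2-T23 (-2.04) were lower without passing (adjusted p = 0.0871, adjusted p = 0.0785 and adjusted p = 0.0675, limma). Set against DP CKO cells, the TCRβ-negative array differed by between -0.68 (H2-K1) and 0.01 (Mr1) over the 10 genes. Cd1d1 and Mr1 also differed little from CD4SP CKO cells, by -0.04 and -0.20. The 3 calls were lost without the DP pair, without the CD8SP pair and with slide as a block, with H2-K1 between -5.65 and -3.08 over all alternatives. A set of 10 transcripts typical of DP cells (Rag1, Rag2, Ptcra, Dntt and 6 more, chosen with results known) summed to a linear level of 2197 in TCRβ-negative CKO cells, 2192 in DP CKO cells and 173 in CD4SP CKO cells.

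OT-I CD8SP cells were set against CD8SP cells of mice without the transgene. Of the 10 genes, 9 had a lower fitted level in OT-I cells, among them H2-K1 at -1.37 (SE 0.39, adjusted p = 0.451), H2-D1 at -0.98 (SE 0.36, adjusted p = 0.647) and B2m at -0.72 (SE 0.35, adjusted p = 0.819). The median difference over the 10 genes was -0.50, and over all genes 0.026. Limma called 0 of the 10, against 0.237% of all genes, and 3 had an unadjusted p below 0.05, against 6.92%. The CD8SP CKO and OT-I CKO arrays share a slide, and between them H2-K1 differed by -1.27, H2-D1 by -0.81 and B2m by -0.55. The OT-I cells also differ from CD8SP cells in age, and transgene and age cannot be told apart. The control arrays of these 2 populations lie on different slides. The myeloid marker sums given above were lower in OT-I than in CD8SP cells of either genotype, and their part was not tested. For CD4SP minus CD8SP, 0 of the 10 genes were called (0.39% of all genes) and 0 had an unadjusted p below 0.05 (13.3% of all genes). The largest fitted difference was Mr1 at 1.07 (SE 0.97, adjusted p = 0.603), and H2-K1 had -0.03 (SE 0.39, adjusted p = 0.970).

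The study's other question was what loss of Brd1, a bromodomain subunit of histone acetyltransferase complexes, does in each population. Classical class I, B2m, Tapbp and Nlrc5 had a higher level on the CKO array than on the control array in DP, CD8SP and OT-I CD8SP cells and nearly equal levels in CD4SP cells. Mr1 stood apart, with a 9.80-fold higher level on the CKO array in CD4SP cells. The CD8SP CKO and CD8SP control arrays lie on different slides, so genotype and slide cannot be told apart in that pair. Limma called 0 of the 10 genes for genotype, against 0.281% of all genes (57 of 20282). All 10 estimates were positive, and 6 had an unadjusted p below 0.05, against 5.87% of all genes that were higher at that level. The median estimate over the 10 was 0.71, and over all genes -0.04.

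**Figure D3:**
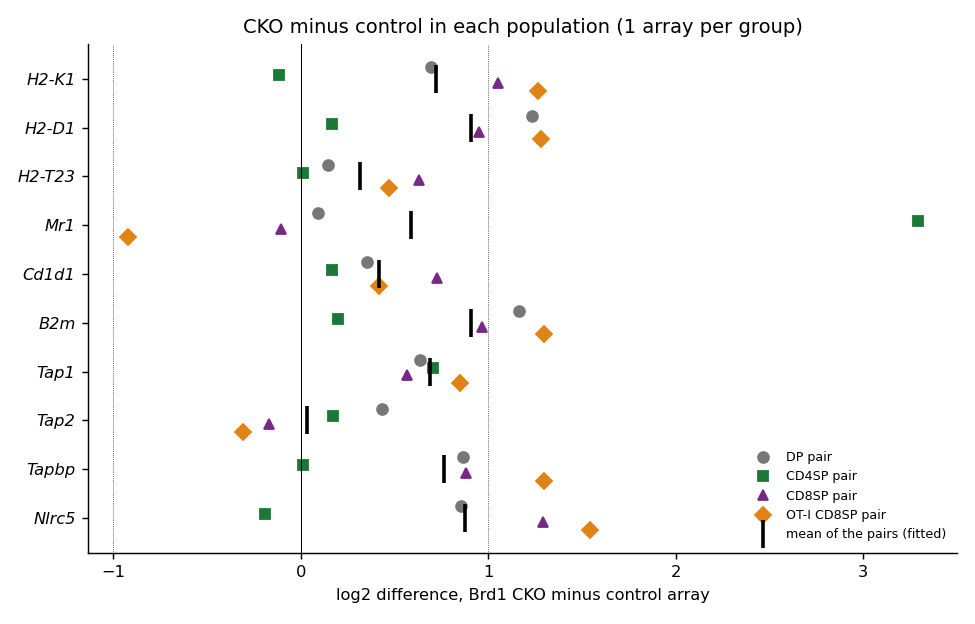
Difference in log2 level between the CKO and the control array of each population (1 array each) for the 10 genes, with the fitted mean as a black bar and dotted lines at a 2-fold difference. The CD4SP squares lie between -0.19 and 0.70 for all genes but Mr1, whose square is at 3.29, and the OT-I diamonds are the highest points for H2-K1, H2-D1, B2m, Tap1, Tapbp and Nlrc5.

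B2m differed between CKO and control by 1.17 in DP, 0.20 in CD4SP, 0.97 in CD8SP and 1.30 in OT-I cells, with an estimate of 0.91 (SE 0.25, adjusted p = 0.297). For H2-D1 the differences were 1.23, 0.17, 0.95 and 1.28 in the same order, with an estimate of 0.91 (SE 0.25, adjusted p = 0.305). H2-K1 had 0.70, -0.12, 1.05 and 1.26 (estimate 0.72, SE 0.28, adjusted p = 0.430). By its second, dimmer probe the differences were 0.39 in DP, 0.89 in CD8SP and 0.96 in OT-I cells. In CD4SP cells that probe was at 7.49 in the CKO and 7.37 in the control, so the sign there depends on the probe. Classical class I and its light chain thus had the CKO array higher in every pair but the CD4SP pair of H2-K1, where the sign was negative by the brighter probe. Nlrc5 had 0.85, -0.19, 1.29 and 1.55 (estimate 0.87, SE 0.32, adjusted p = 0.422), and Tapbp had 0.86, 0.01, 0.88 and 1.30 (estimate 0.76, SE 0.26, adjusted p = 0.383). Tap1 varied least between pairs, with 0.63, 0.70, 0.57 and 0.85, and had the lowest unadjusted p of the 10 genes (estimate 0.69, SE 0.18, unadjusted p = 0.00863, adjusted p = 0.287). Its partner Tap2 had 0.43, 0.17, -0.17 and -0.31 (estimate 0.03, SE 0.21, adjusted p = 0.959).

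The nonclassical genes differed less between genotypes than the classical ones in 3 of the 4 pairs. The median of H2-K1 and H2-D1 was 0.96 in DP, 0.02 in CD4SP, 1.00 in CD8SP and 1.27 in OT-I cells. The median of H2-T23, Mr1 and Cd1d1 was 0.15, 0.17, 0.63 and 0.42 in the same order, and no test was made of these medians. H2-T23 had 0.15, 0.01, 0.63 and 0.47 (estimate 0.32, SE 0.20, adjusted p = 0.578). Cd1d1 had 0.36, 0.17, 0.72 and 0.42 (estimate 0.42, SE 0.19, adjusted p = 0.497).

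Mr1 had differences of 0.09 in DP, 3.29 in CD4SP, -0.10 in CD8SP and -0.92 in OT-I cells, with an estimate of 0.59 (SE 0.68, adjusted p = 0.742). Without the CD4SP pair the estimate was -0.31 (adjusted p = 0.792), so its sign rests on that pair. With normexp background correction the CD4SP difference was 1.98 in place of 3.29. The CD4SP CKO array also held more DP-stage transcript than its control: 9 of the 10 DP-stage transcripts were higher there, with Rag1 at 2.88 in the CKO and 0.62 in the control. Their summed linear level was 173 in CD4SP CKO and 91.9 in CD4SP control, against 2192 in DP CKO and 1919 in DP control. NK cell markers were also unequal in this pair: 2 of 6 were well above background in CD4SP CKO and 5 of 6 in CD4SP control cells. Their part in the Mr1 difference was not tested.

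By a 2-fold difference between 2 arrays, with no replicate to set it against, 2 of the 10 genes were higher in CKO DP cells (H2-D1 and B2m; 3.93% of all genes compared), 1 in CD4SP (Mr1; 3.48%), 2 in CD8SP (H2-K1 and Nlrc5; 6.76%) and 5 in OT-I cells (H2-K1, H2-D1, B2m, Tapbp and Nlrc5; 8.51%). None was more than 2-fold lower, against 5.32%, 5.33%, 9.24% and 13.8% of all genes. The CKO array was the higher one in all 4 pairs for 6 of 10 genes (H2-D1, H2-T23, Cd1d1, B2m, Tap1 and Tapbp), against 11.5% of the genes well above background on all 9 arrays, as these 10 are. The median over the 10 genes was 0.67 for DP, 0.17 for CD4SP, 0.80 for CD8SP and 1.06 for OT-I cells, where the median of all genes detected in the pair was 0.17, -0.04, -0.15 and -0.08. When scaled on the probes that every array detected, 1 gene in DP and 5 in CD8SP were past 2-fold, and with quantile normalization 0 in DP and 5 in CD8SP. With the dimmer probe of a gene, 0 in CD8SP and 4 in OT-I cells were past 2-fold, and H2-K1 was past it in neither. DP-stage transcripts moved with the OT-I difference: their summed level was 101 in OT-I CKO and 698 in OT-I control cells, and 539 in CD8SP CKO and 997 in CD8SP control cells. Markers of other cell types also differed between genotypes. Of 5 granulocyte markers, 4 could be compared in DP cells and all 4 were more than 2-fold lower on the CKO array, where S100a8 was not well above background, and the list's summed linear level was 0.494 in DP CKO and 11.3 in DP control cells. The 4 erythroid markers on the array summed to 13.2 in DP CKO and 4.69 in DP control cells, and to 19.2 in OT-I CKO and 8.19 in OT-I control cells. Epcam was higher on the CKO array by 3.11 in DP, 2.18 in CD4SP and 0.93 in CD8SP cells, and was not well above background in OT-I cells. Krt5, the only other detected marker of epithelium and stroma, differed by -0.33 in DP and 0.19 in CD4SP cells. In CD8SP cells Krt5 was at least 1.59-fold lower on the CKO array, where it was not well above background. The part of all these transcripts in the CKO differences was not tested.

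Other class I genes also rose in single-positive cells. Of 34 other class I and class I-like heavy chains listed, 28 had a probe and 17 were tested. For CD4SP minus DP, 4 of 17 rose and 0 fell (2.16% and 0.922% of all genes): H2-Q8 (3.70), H2-Q7 (2.95), the formyl-peptide presenter H2-M3 (2.32) and H2-Q6 (1.99), with adjusted p between 0.0153 and 0.0431 (limma). For CD8SP minus DP, 6 of 17 rose with signal above background on both sides and 0 fell (2.42% and 1.04% of all genes). These were the same 4, H2-M11 (1.83) and the iron regulator Hfe (2.91, well above background on 1 of 2 DP arrays). The IgG receptor Fcgrt also rose, and the protein C receptor Procr is given as a bound alone. Hfe, Fcgrt and Procr are class I-like genes that do not present peptides. Fcgrt and Procr were not well above background on either DP array, so their differences are bounds against the lowest signal above background: Fcgrt was at least 19.2-fold higher in CD8SP than in DP cells and Procr at least 7.87-fold. Procr was well above background only on the 2 CD8SP arrays without OT-I, through which alone it entered the test, so its call is left out. The summed level of the myeloid markers was also highest there. With slide as a block none of these genes was called, nor any other list gene for CD8SP minus DP. In TCRβ-negative cells H2-Q6, H2-Q7 and H2-Q8 fell compared with CD4SP cells (-2.53, -3.41 and -4.39; adjusted p 0.0283 to 0.0430, limma). The median over the 17 was 1.09 for CD4SP minus DP and 1.27 for CD8SP minus DP.

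None of the 17 was called for genotype (limma; 0.281% of all genes either way). H2-T3, which encodes a thymus leukaemia antigen, did not pass (adjusted p = 0.130) and has only bounds. It was well above background on the DP, CD8SP and OT-I control arrays (0.41, -0.59 and -2.27) and not well above background on the CKO arrays of those populations, so it was at least 12.8-fold lower in DP CKO cells, 5.51-fold in CD8SP CKO and 1.48-fold in OT-I CKO cells against the lowest signal above background on the CKO array. In CD4SP cells neither array was above background. TCRβ-negative CKO cells held H2-T3 at -3.24, the single CKO array well above background. H2-T10, another gene of the T region, had a lower CKO level in all 4 pairs (estimate -1.12, SE 0.37, adjusted p = 0.371), with 1.97 in DP CKO and 4.25 in DP control cells. Hfe had -1.47 (adjusted p = 0.216). The highest estimates were those of Fcgrt (0.87), H2-Q7 (0.82) and H2-M3 (0.67), none past the threshold (adjusted p 0.353 to 0.474, limma).

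The remaining lists hold genes that make, trim or load antigen or regulate these genes. Over all genes, 2.16% rose and 0.922% fell for CD4SP minus DP, and 2.42% and 1.04% for CD8SP minus DP. The medians over all genes were -0.0020 and 0.030. The other peptide loading and trimming genes (8 tested) had 0 called in any contrast, with medians of 0.47 for CD4SP minus DP and 0.63 for CD8SP minus DP. Of the immunoproteasome subunits and activators, which make class I peptides, 1 of 7 rose for CD8SP minus DP, the activator subunit Psme2 (1.93, adjusted p = 0.0390), and 0 for CD4SP minus DP, with medians of 1.15 and 0.84. The constitutive subunits Psmb5, Psmb6 and Psmb7 had 0 of 3 called, with medians of 0.47 for CD8SP minus DP and -0.20 for CD4SP minus DP. Among 15 regulators of class I transcription, Irf8 rose for CD8SP minus DP (3.28, adjusted p = 0.0144, limma). The class II transactivator Ciita was well above background on the 2 CD8SP arrays without OT-I alone. It entered the test only through them, so its call is left out. Ciita was at least 2.81-fold higher there than in DP cells. Irf8 and Ciita are both genes of antigen-presenting cells, and the myeloid marker sums given above were highest on the same arrays. None of the 15 rose for CD4SP minus DP, where Irf9 had 2.91 (adjusted p = 0.0557). Of 8 tested genes for lipid loading of CD1d, the ganglioside activator Gm2a (1.95 and 2.18) and the protease Ctss (4.89 and 4.75) rose in CD4SP and CD8SP cells, and Ctsl, the cathepsin of cortical epithelium, had -2.95 and -1.55 without passing (adjusted p = 0.0572 and adjusted p = 0.193, limma).

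Among the 7 lists of genes other than the 10 members and the cell type markers, the interferon-stimulated genes had the highest medians. Of 14 tested, 10 rose for CD4SP minus DP and 8 for CD8SP minus DP, against 2.16% and 2.42% of all genes. All 14 were positive in both, with medians of 3.13 and 2.79, against -0.0020 and 0.030 over all genes. Ifit3 rose by 5.48 and Oasl2 by 5.09 for CD4SP minus DP (adjusted p = 0.0125 and adjusted p = 0.0178, limma), with Ifit3 well above background on 1 of 2 DP arrays. Ifit1 was not well above background on either DP array and was at least 17.4-fold higher in CD4SP cells (adjusted p = 0.0263, limma). Ifi27l2a had 5.26 without passing (adjusted p = 0.0579, limma), and Isg15, Irf7, Rsad2, Bst2, Rtp4, Xaf1 and Gbp2 rose by 1.99 to 3.45. In TCRβ-negative cells the median of the 14 was -3.32 compared with CD4SP cells, against 0.0022 over all genes. Isg15 had -3.62, Irf7 had -3.82 and Ifit3 had -5.78, and Oasl2 was also lower. Oasl2 was not well above background on the TCRβ-negative array and was at least 41.6-fold lower there than on the CD4SP CKO array. For genotype 0 of 14 were called, against 0.281% of all genes either way. Of the 14, 12 were positive (median 0.46, against -0.04 over all genes), the highest estimates being Irf7 (1.24), Gbp2 (1.02) and Xaf1 (1.02). The difference between CKO and control had a median of 0.50 in DP, -0.13 in CD4SP, 0.85 in CD8SP and 1.15 in OT-I cells. Over all genes detected on both arrays of a pair, the medians were 0.17, -0.04, -0.15 and -0.08 in that order. All 14 were higher on the CKO array in both CD8SP pairs.

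**Figure D4:**
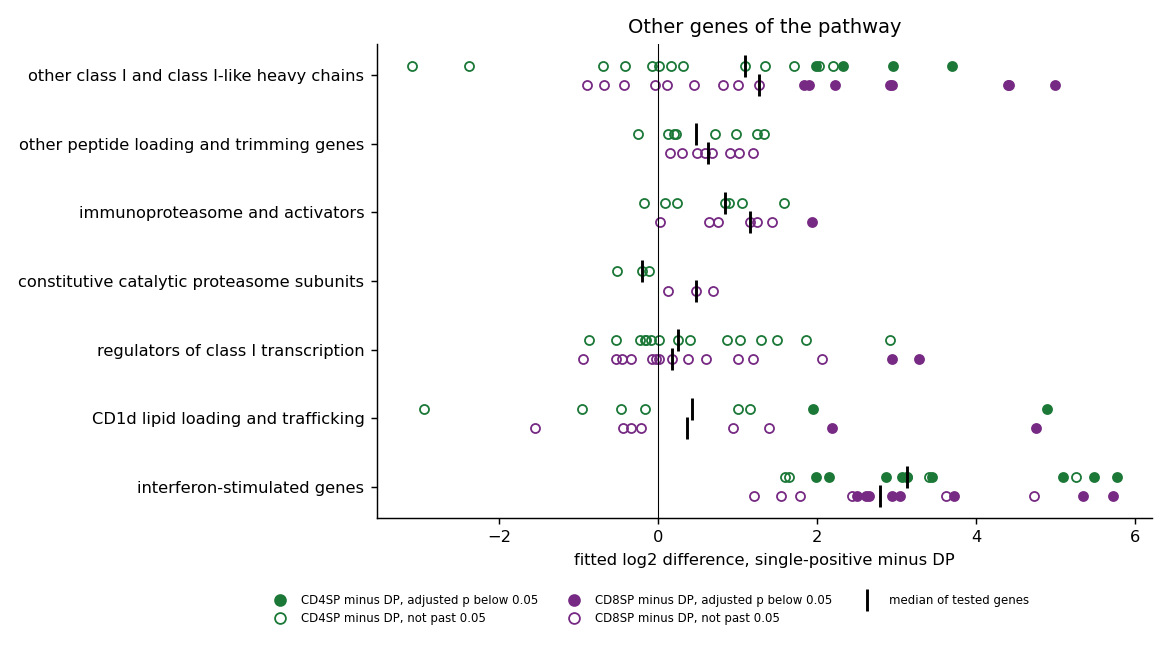
Fitted log2 difference of CD4SP minus DP (green) and CD8SP minus DP (purple) for the tested genes of 7 lists, with filled points for adjusted p below 0.05 and a black bar at the median of each list; genes not well above background in DP cells, such as Ifit1, Procr, Fcgrt and Ciita, are drawn at their fitted values and have only bounds. The interferon-stimulated genes all lie to the right of 0 with medians of 3.13 and 2.79, and the proteasome and loading genes lie closer to 0.

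The genes whose levels followed each member most closely over the 9 arrays were found among 7170 named genes of at least median brightness, as a description. Pearson correlations with H2-K1 were 0.993 for H2-K2, 0.987 for Isg15 and 0.986 for Bcl3. Nlrc5 was followed by Shisa5 (0.996), Ifi35 (0.992) and Ltb (0.990), and H2-T23 by Gm11127 (0.999), H2-Q2 (0.995) and Relb (0.989). For H2-K2, Gm11127 and H2-Q2, which are class I family members, shared signal between probes cannot be told apart from shared levels. Mr1 had Lrrcc1 (0.940), Pbrm1 (0.921) and Mterf2 (0.916), whose own ranges were narrower than that of Mr1, and Cd1d1 had Rbm18 (0.963), Igsf23 (0.948) and Tut7 (0.947). Among the 10 genes themselves, Nlrc5 correlated with H2-K1 at 0.99, with H2-D1 and Tapbp at 0.98, with B2m at 0.96, with H2-T23 at 0.95 and with Tap1 at 0.84. Its correlation was -0.78 with Tap2, -0.69 with Mr1 and -0.01 with Cd1d1. All points share the 9 arrays and their scaling.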

How the data were processed

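Each of the 9 groups was measured on 1 Cy3 array of Agilent design 028005, per the file headers (the labels name a biotin protocol). The deposited scanner files give an intensity per spot, background-subtracted by Agilent Feature Extraction 10.7.1.1, per the file headers; the authors' deposited series table holds that intensity divided by the array's 75th percentile and was used as an alternative. Repeated spots were averaged per probe, outlier flags removed 144 of the 55681 probes, and 26715 probes were named through RefSeq accessions with 20258 symbols. A gene was represented by its brightest probe. Genes well above background on at least 2 arrays were fitted with limma 3.58.1 (R 4.3.3; 3 residual and 2.91 prior degrees of freedom), population plus genotype, Benjamini-Hochberg over 20282 genes, two-sided; the fit was tested on simulated data. The error is the spread of the genotype difference between 4 populations; the TCRβ-negative array enters no genotype estimate. The number of arrays limits the precision, and p-values measure only the spread between these arrays. Named genes were all members, list genes that passed, otherwise up to 3 per list and direction, and the 3 most alike for 5 members. The members and lists were chosen with earlier results of these data known. Alternatives were other scalings, background corrections, filters, probes, slide as a block, and leaving out a pair. No spot was saturated.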

Additional observations from a re-analysis of the deposited data

Results flagged for a closer look

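For 4 of the 10 genes the CKO array was higher than the control array in some populations and lower in others. Each such population is 1 array per genotype, so the difference between populations was not tested. Mr1 differed by 4.22 between the CD4SP pair (3.29) and the OT-I pair (-0.92). Nlrc5 differed by 1.74 between the OT-I pair (1.55) and the CD4SP pair (-0.19). H2-K1 differed by 1.38 between the OT-I pair (1.26) and the CD4SP pair (-0.12). Tap2 differed by 0.74 between the DP pair (0.43) and the OT-I pair (-0.31). The negative signs of H2-K1, Nlrc5 and Tap2 did not hold under every setting: over the alternatives the CD4SP pair lay between -0.13 and 0.16 for H2-K1 and between -0.28 and 0.03 for Nlrc5, and the OT-I pair between -0.31 and 0.17 for Tap2. That of Mr1 in the OT-I pair did, between -0.93 and -0.51.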

How the results depend on the processing

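No paired analysis was possible because each group holds 1 array and the labels give no replicate numbers shared across groups. Of the 10 genes, 0 were called for genotype under each of the 14 alternatives. The count over all genes for genotype was 57, against 32 when scaled on the probes that every array detected, 29 with quantile normalization, 20 for genes detected on all 9 arrays, 96 with no filter, 0 with slide as a block and 132 on the first slide alone, and between 0 and 24 when a pair was left out. For CD4SP minus DP the calls among the 10 genes (4) lay between 3 and 6, with H2-T23 passing under 4 of 12 alternatives and Tapbp under 5. Calls among the 10 genes for CD8SP minus DP (4) were 2 with the detected-probe percentile, 6 with normexp, 5 for genes on all 9 arrays, 0 with slide as a block and 2 on the first slide. For TCRβ-negative minus CD4SP (3) they were 1 with that percentile, 0 with quantile normalization, 6 with normexp, 6 for genes on all 9 arrays, 0 with slide as a block and 5 on the first slide, and between 0 and 3 when a pair was left out. List genes called for CD4SP minus DP (16) were 29 with normexp, 7 with slide as a block, 30 on the first slide and between 7 and 25 when a pair was left out. For CD8SP minus DP the count was 21, Procr and Ciita included, against 11 with the detected-probe percentile and 0 with slide as a block. Genes past 2-fold in the DP pair (2) were 1 with the detected-probe percentile and 0 with quantile normalization, and in the CD8SP pair (2) 5 with each of these and with normexp, and 0 with the dimmer probe or the mean of probes. Signs turned in uncalled values. For CD4SP minus CD8SP, B2m (-0.08) became 0.14 with the detected-probe percentile, 0.31 with quantile normalization and 0.0603 on the first slide. H2-K1 (-0.03) became 0.19, 0.34 and 0.35 under the same settings, 0.0104 with normexp, 0.0814 with the dimmer probe, 0.0243 with the mean of probes and 0.19 with slide as a block. Tap2 (-0.27) became 0.16 with quantile normalization, and Tap1 (0.06) became -0.0193 with slide as a block. Cd1d1 for CD4SP minus DP (0.13) became -0.27 with the dimmer probe and -0.0694 with the mean of probes, and Mr1 for OT-I minus CD8SP (-0.31) became 0.15 with slide as a block. For genotype, Mr1 (0.59) lay between -0.31 (without the CD4SP pair) and 1.095 when a pair was left out, and Tap2 (0.03) between -0.10 (without the DP pair) and 0.15. Of the other fitted values for single genes, 672 kept their direction and side of the threshold, 20 newly passed and 30 no longer passed. The cause was not tested. Signal over background limits the dim probes of Nlrc5 and H2-T3.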
